A study of Mus musculus with 4 samples.

Results

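The genes described here are 34 genes of cholesterol metabolism in RAW264.7, a macrophage-like cell line from the mouse: 18 enzymes of sterol synthesis, 5 genes that control or answer to the SREBP transcription factors, the oxysterol enzyme gene Ch25h, 2 genes of the sterol-sensing LXR receptors, 5 LXR targets and 3 genes of fatty acid synthesis that SREBP1 and LXR share. The members were listed by symbol and not by a rule on their values, though with earlier results of these data known. Of the 34, 33 had a probe that could be named, out of 22911 named genes on the array. Acat2, an acetyl-CoA acetyltransferase at the entry to the pathway, had no named probe and is not analysed here. Of the 33, 32 were well above background on all 4 arrays, against 12471 (54.4%) of all named genes.

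The 4 groups were cells with the siRNA pool against Ruvbl2 given LPS (lipopolysaccharide, which activates macrophages through Toll-like receptor 4), cells with non-targeting control siRNA given LPS, cells with the Ruvbl2 siRNA pool given DMSO, and cells with control siRNA given DMSO. Total RNA was analysed 2 days after transfection, and each group was 1 array, so nothing below has a replicate or a p-value. The sources used here do not state the dose of LPS or how long it was given. The series asks what RUVBL2, an ATPase of chromatin remodelling and chaperone complexes, does in the LPS response.

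Cells make cholesterol from acetyl-CoA through mevalonate, squalene and lanosterol. When sterols in the endoplasmic reticulum run low, SCAP carries the SREBP proteins to the Golgi, where they are cut, and the freed part enters the nucleus and switches on the enzymes of synthesis. INSIG1 holds SCAP back when sterols are plentiful. Surplus cholesterol is turned into oxysterols, which bind the LXR receptors. LXR then switches on export pumps such as ABCA1 and ABCG1, and the balance of the SREBP and LXR arms sets how macrophages handle lipid during inflammation.

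A level is the log2 processed signal of a gene's brightest probe minus the 75th percentile of that array, so levels are compared across arrays for 1 gene and not between genes. A difference was called at 2-fold, a log2 difference of 1. The technical SD of a log2 difference, from probes printed 10 times on each array, was 0.06 for levels above 3 and 0.13 for levels between -2 and 3. It covers spots within an array and not cultures, labelling or hybridisation. The arrays had 54.1% to 55.0% of spots well above background and no saturated spot. Ruvbl2 itself, by its brighter probe, had a level of 4.51 with Ruvbl2 siRNA and 4.92 with control siRNA in LPS (75.7% of control), and 4.67 and 5.01 in the same order in DMSO (79.2%). Its dimmer probe, well above background on all 4 arrays, gave 92.2% of control in LPS and 68.5% in DMSO. As log2 differences these were -0.12 (technical SD 0.27) and -0.55 (technical SD 0.21). All 8 macrophage markers were well above background on every array, while all 4 fibroblast and all 3 hepatocyte markers were not on any. Lep, 1 of 3 adipocyte markers, was well above background on all 4 arrays, and the B cell marker Cd79a and the epithelial marker Krt18 on the control siRNA DMSO array only. Of 4 T cell markers, Cd3e, Cd3d and Cd4 were well above background on all arrays. The summed linear level of the T cell list was 3.29 and 3.32 in LPS and 3.97 and 3.70 in DMSO, with Ruvbl2 siRNA first in each pair, and its part in the results was not tested. In bulk RNA of this kind, fewer cells of a type and less RNA per cell cannot be told apart. The arrays of the 2 siRNAs lay in different rows of 1 slide, so an effect of the row cannot be told apart from the siRNA. When levels were set against spike-in RNA instead, the all-gene median shifted by 0.37 for LPS with Ruvbl2 siRNA, by -0.30 for the siRNA difference in DMSO and by 0.30 for the difference of LPS effects, and by under 0.1 elsewhere. The direction of single members turned with it for 16 of 32 in the LPS comparison with Ruvbl2 siRNA, for 14 of 32 in the siRNA comparison in DMSO, for 15 of 32 in the difference of LPS effects, for Fdps and Scd1 in the LPS comparison with control siRNA, and for none in the siRNA comparison in LPS.

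Promoters from RefSeq (GRCm38.p6, 250 bases before to 50 after the start) were found for 27 of the 34 genes. The pentamer CCAAT, bound by NF-Y, a partner of SREBP, was present on either strand in 14 of the 15 sterol synthesis genes that had a promoter (93.3%), against 4285 of 9995 genes well above background on all arrays (42.9%). The GC box GGGCGG was present in 14 of 15 (93.3%), against 65.4%. The sterol regulatory element written as TCACNCCAC was present in 1 of 15, Hmgcs1, against 1.41%, and the LXR element, 2 copies of AGGTCA in the same direction with 4 bases between them, was in none of the members' windows and in 0.0148% of all genes in the table. These are matches of letters in a short window and no measure of binding. The last 200 bases before the start are shown for Hmgcs1, which holds the only sterol element found, for Tm7sf2, the synthesis gene with the largest siRNA difference, and for Abca1 and Mylip, the LXR targets that passed 2-fold. Capitals mark matches to any of these motifs on either strand (ATTGG is CCAAT on the other strand, and CCGCCC is GGGCGG).
Hmgcs1, chr13:119690151-119690350, + strand: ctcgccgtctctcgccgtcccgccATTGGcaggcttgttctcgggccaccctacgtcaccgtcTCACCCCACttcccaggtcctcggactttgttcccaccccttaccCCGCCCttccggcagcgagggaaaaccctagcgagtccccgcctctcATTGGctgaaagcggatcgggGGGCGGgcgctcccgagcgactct
Tm7sf2, chr19:6067851-6068050, - strand: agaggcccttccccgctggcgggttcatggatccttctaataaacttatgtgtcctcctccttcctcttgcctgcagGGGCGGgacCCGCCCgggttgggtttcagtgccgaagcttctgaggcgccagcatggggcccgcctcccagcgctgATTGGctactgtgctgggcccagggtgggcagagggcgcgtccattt
Abca1, chr4:53159896-53160095, - strand: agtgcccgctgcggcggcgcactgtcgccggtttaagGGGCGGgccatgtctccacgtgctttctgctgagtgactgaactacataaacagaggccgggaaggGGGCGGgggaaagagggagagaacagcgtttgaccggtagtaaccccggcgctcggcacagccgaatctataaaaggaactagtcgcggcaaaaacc
Mylip, chr13:45389542-45389741, + strand: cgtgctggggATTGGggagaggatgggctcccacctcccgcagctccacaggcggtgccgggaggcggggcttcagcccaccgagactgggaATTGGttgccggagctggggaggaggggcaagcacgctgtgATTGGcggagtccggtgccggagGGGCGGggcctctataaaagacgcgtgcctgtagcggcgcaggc

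The first question is how LPS bears on sterol synthesis. None of the 17 measured enzymes passed 2-fold with LPS under either siRNA, and they did not move as a block. With control siRNA 8 enzymes lay above 0 and 9 below, where 50% of all genes lay above, and their median log2 difference was -0.06 against 0.00 for all genes. With Ruvbl2 siRNA 5 lay above 0 and 12 below, where 46.8% of all genes lay above and 53.2% below, and their median was -0.12 against -0.03 for all genes. Spike-in scaling turned the second direction, with 14 above 0 and a median of 0.25, where all genes had a median of 0.34. Over all members 1 of 32 was called higher and 1 lower with Ruvbl2 siRNA, against 6.21% of 13517 genes compared (4.14% higher and 2.07% lower). The same counts held with control siRNA, against 7.95% of 13512 genes (5.74% higher and 2.21% lower). At 1.5-fold 2 of 32 passed with Ruvbl2 siRNA, against 16.9% of genes (5 of 32 against 28.6% with spike-in scaling), and 6 of 32 with control siRNA, against 20%, so the members' shares were near or under those of all genes.

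Early mevalonate steps lay within 0.44 of 0. Hmgcs1, which makes HMG-CoA, had a level of 4.96 with LPS and 5.30 with DMSO in Ruvbl2 siRNA cells, and of 4.98 with LPS and 5.18 with DMSO in control siRNA cells. Its LPS differences of -0.33 and -0.20 lay below 0 with both siRNAs, and spike-in scaling made the first 0.03. Mvd, mevalonate diphosphate decarboxylase, had 2.99 with LPS and 3.43 with DMSO under Ruvbl2 siRNA, and 3.05 with LPS and 3.47 with DMSO under control siRNA. Both LPS arrays were thus below both DMSO arrays for Mvd, by 0.44 and 0.42. Spike-in scaling would bring the first of these about 0.37 nearer to 0. Pmvk, phosphomevalonate kinase, differed by 0.08 with Ruvbl2 siRNA and by 0.34 with control siRNA. Idi1, the isopentenyl isomerase, differed by 0.04 and -0.09, and Fdps, which makes farnesyl diphosphate, by -0.15 and -0.06, in the same order, or 0.22 and 0.012 with spike-in scaling. The largest mevalonate difference between siRNAs was that of Mvk, mevalonate kinase, at -0.37 and 0.08 by its brightest probe, while its other probe gave 0.28 and 0.65, both above 0.

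The squalene and lanosterol steps split in direction. Sqle, squalene epoxidase, had a level of 5.42 with LPS and 5.54 with DMSO in Ruvbl2 siRNA cells, and of 5.14 with LPS and 5.54 with DMSO in control siRNA cells. Its LPS difference was -0.12 with Ruvbl2 siRNA and -0.40 with control siRNA, the first above 0 (0.25) with spike-in scaling. Fdft1, squalene synthase, differed by -0.24 and 0.06 in the same order, the first above 0 (0.13) with spike-in scaling. Sc5d, the sterol desaturase that acts near the end of the pathway, was higher on both LPS arrays. Its level was 3.76 with LPS against 3.34 with DMSO under Ruvbl2 siRNA (0.42, 1.33-fold), and 3.95 against 3.39 under control siRNA (0.55, 1.47-fold). Ebp, the sterol isomerase, was also higher with LPS, by 0.35 and 0.28. Dhcr7, a terminal reductase of the pathway, was lower on both LPS arrays. Its level was 1.04 against 1.5 under Ruvbl2 siRNA (-0.46) and 1.28 against 1.61 under control siRNA (-0.33). Spike-in scaling would bring the first Dhcr7 difference about 0.37 nearer to 0. The lower group of enzymes with both siRNAs numbered 8 of 17 and the higher group 4 of 17, or 2 lower and 8 higher with spike-in scaling. Over the 17, 70.6% had the same direction with both siRNAs, comparisons that share no array, against 75% of 12471 genes measured on all arrays.

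**Figure D1:**
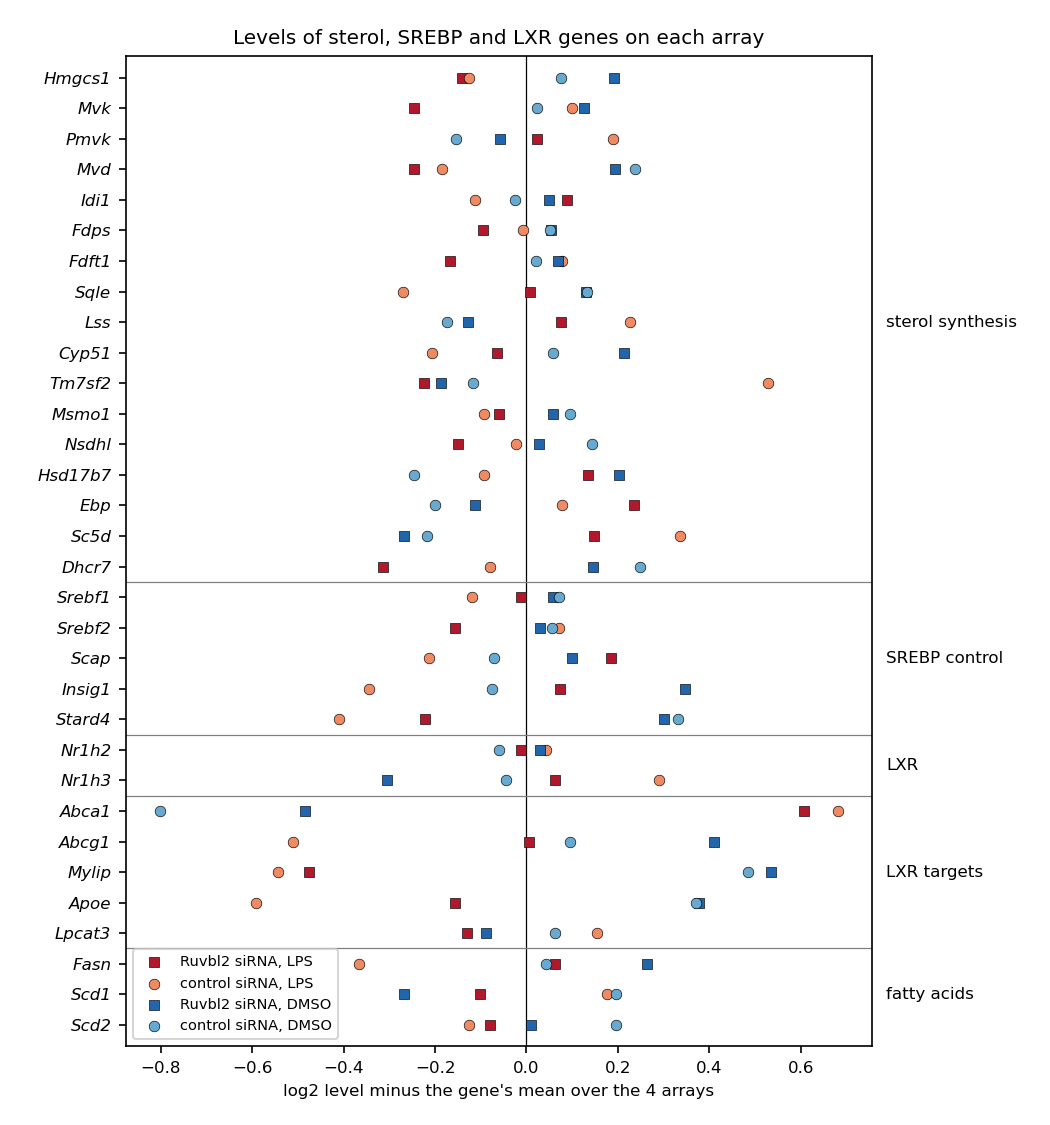
Each row is a gene and each point is 1 of the 4 arrays, as the log2 level minus that gene's mean over the arrays. Squares are Ruvbl2 siRNA and circles control siRNA, with LPS in red shades and DMSO in blue. Abca1 has both LPS arrays to the right and Mylip both to the left, while Tm7sf2 has the control siRNA LPS array apart from the other 3.

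Genes that control SREBP activity differed little with LPS and, by their brightest probes, lay mostly below 0. Srebf1 had 5.79 with LPS and 5.86 with DMSO in Ruvbl2 siRNA cells, and 5.68 with LPS and 5.87 with DMSO in control siRNA cells, differences of -0.07 (0.30 with spike-in scaling) and -0.19. Srebf2, which encodes the SREBP that drives sterol synthesis, differed by -0.19 (0.18 with spike-in scaling) and 0.01, and Scap by 0.09 and -0.14. Insig1, itself an SREBP target, was lower by a like amount with both, -0.28 and -0.27. Spike-in scaling gave 0.09 for Insig1 and placed 4 of these 5 genes above 0 with Ruvbl2 siRNA, while with control siRNA 4 of 5 lay below 0 under either scaling. Stard4, a sterol carrier and SREBP2 target, had the largest value. Its brightest probe had 1.61 with LPS against 2.13 with DMSO under Ruvbl2 siRNA (-0.52), and 1.42 against 2.16 under control siRNA (-0.74, 1.67-fold lower). The other Stard4 probe ran the opposite way, at 0.78 and 0.67 in the same order, so no direction is given for the gene.

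The LPS difference was clearest among LXR targets, which diverged from each other. Abca1, the cholesterol pump that loads apolipoprotein A-I, had a level of 0.10 with LPS against -0.99 with DMSO in Ruvbl2 siRNA cells, and of 0.18 with LPS against -1.30 with DMSO in control siRNA cells. Both LPS arrays stood above both DMSO arrays, with Abca1 2.13-fold (log2 1.09) and 2.79-fold (1.48) higher. Its other probe was well above background on the LPS arrays alone and gave a log2 difference of at least 0.82 and 1.44. Normexp correction with quantile normalization put Abca1 at 0.92 with Ruvbl2 siRNA, under 2-fold.

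Mylip, the ubiquitin ligase also called IDOL that sends lipoprotein receptors to the lysosome, went the other way. Its level was 0.21 with LPS against 1.21 with DMSO in Ruvbl2 siRNA cells and 0.14 against 1.17 in control siRNA cells. Mylip was thus 2.01-fold lower (-1.01) and 2.04-fold lower (-1.03) with LPS, just past the size rule. Spike-in scaling put these at -0.64 and -0.96, and normexp correction with quantile normalization put the first at -0.93.

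Apoe, the lipoprotein that carries cholesterol out of macrophages, and Abcg1, which exports cholesterol to lipoprotein particles, were lower with LPS without passing 2-fold. Apoe had 0.50 with LPS against 1.04 with DMSO under Ruvbl2 siRNA (-0.53), and 0.07 against 1.03 under control siRNA (-0.96, 1.95-fold). The other Apoe probe gave -0.69 and -0.98. Spike-in scaling would bring the Ruvbl2 siRNA value of each Apoe probe about 0.37 nearer to 0. Abcg1 had 3.96 with LPS against 4.36 with DMSO under Ruvbl2 siRNA (-0.41), and 3.44 against 4.05 under control siRNA (-0.61, 1.52-fold). With Ruvbl2 siRNA and spike-in scaling the Abcg1 value was close to 0 (-0.04). Lpcat3, a phospholipid-remodelling enzyme, differed by -0.04 (0.33 with spike-in scaling) and 0.09. The 5 targets had a median LPS difference of -0.41 with Ruvbl2 siRNA and -0.61 with control siRNA, against -0.03 and 0.00 over all genes. With each siRNA 1 of the 5 was called higher (Abca1) and 1 called lower (Mylip). Over all genes 4.14% were called higher and 2.07% lower with Ruvbl2 siRNA, and 5.74% and 2.21% with control siRNA. With spike-in scaling the median with Ruvbl2 siRNA was -0.039, against 0.34 over all genes.

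The receptors themselves were well above background throughout. Nr1h3, which encodes LXR alpha, had 6.66 with LPS against 6.29 with DMSO under Ruvbl2 siRNA and 6.89 against 6.55 under control siRNA, differences of 0.37 and 0.33. Nr1h2, which encodes LXR beta, differed by -0.04 (0.32 with spike-in scaling) and 0.10. Of the genes shared with SREBP1, Fasn, the fatty acid synthase, was lower with LPS by -0.20 and -0.41. Scd1 differed by 0.17 and -0.02 and Scd2, its fellow stearoyl-CoA desaturase, by -0.09 and -0.32. Spike-in scaling put all 3 above 0 with Ruvbl2 siRNA (Fasn 0.17, Scd1 0.53, Scd2 0.28).

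**Figure D2:**
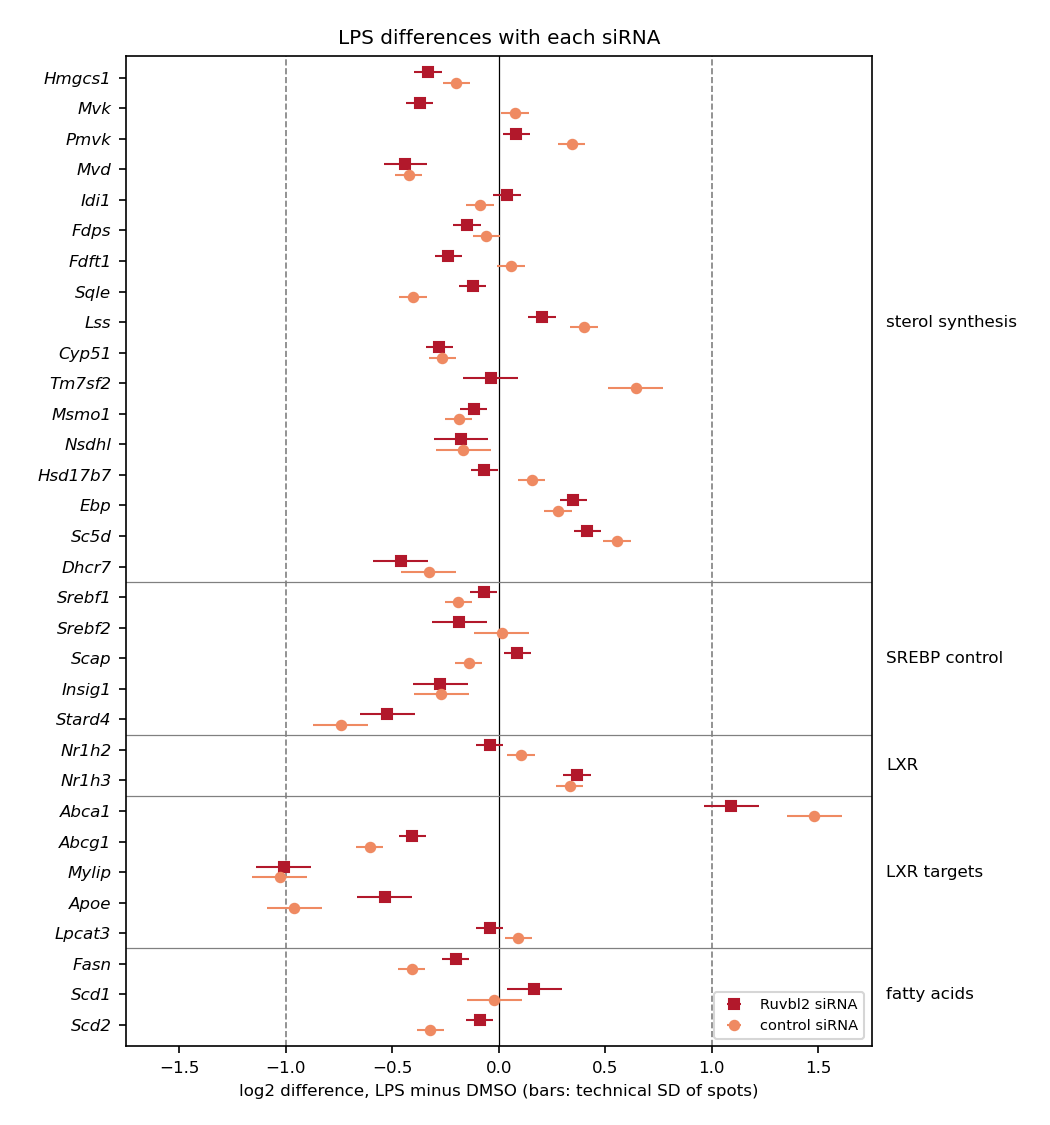
The log2 difference of LPS minus DMSO is shown for each gene, with red squares for Ruvbl2 siRNA, orange circles for control siRNA, bars for the technical SD of spots and dashed lines at 2-fold. Abca1 lies past the line on the right with both siRNAs and Mylip past it on the left, and all synthesis enzymes lie between the lines. Spike-in scaling would move the red squares right by about 0.37.

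Ch25h, which makes 25-hydroxycholesterol and is known as an interferon-inducible gene of activated macrophages, was not measurable. Its single probe was not well above background on any array, with levels of -7.06 with LPS and -5.53 with DMSO under Ruvbl2 siRNA, and -6.93 with LPS and -6.14 with DMSO under control siRNA. All were below the lowest level well above background on the same array, which was -4.82, -4.83, -4.83 and -5.15 in that order of arrays (the Ruvbl2 pair in LPS and DMSO, then the control pair). No fold is given for it.

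The second question is what the Ruvbl2 siRNA did to these genes without LPS, and here differences were small. None of 32 members passed 2-fold in DMSO, against 1.55% of 13418 genes compared, and none passed 1.5-fold, against 6.22%. With spike-in scaling 1 of 32 passed 1.5-fold, Scd1, against 11.2% of genes. The synthesis enzymes had a median of 0.05 and all genes one of 0.04, with 10 of 17 above 0 where 57.6% of all genes lay above and 42.4% below. With spike-in scaling the medians were -0.26 and -0.26, with 16 of 17 enzymes below 0. The largest values of either sign belonged to Hsd17b7 and Scd1. Hsd17b7, a ketosteroid reductase of the lanosterol steps, had 4.11 with Ruvbl2 siRNA against 3.66 with control siRNA (0.45, or 0.15 with spike-in scaling), while its other probe gave 0.16. Scd1 had 1.60 against 2.06 (-0.46, or -0.77 with spike-in scaling). Insig1 had 1.24 against 0.81 (0.42, or 0.12 with spike-in scaling). Abca1 and Abcg1 were each higher by 0.32, or 0.01 with spike-in scaling, and Nr1h3 differed by -0.26, or -0.56 with spike-in scaling.

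Under LPS the same siRNA comparison also gave no member past 2-fold, against 2.52% of 13472 genes, and 1 of 32 past 1.5-fold, against 9.1%. That gene was Tm7sf2, a sterol reductase that acts on the double bond left after lanosterol demethylation. Its level was 1.43 with Ruvbl2 siRNA against 2.18 with control siRNA in LPS, and 1.46 against 1.53 in DMSO. The control siRNA LPS array stood above the other 3, which lay between 1.43 and 1.53. Tm7sf2 was thus 1.68-fold lower (-0.75, technical SD 0.13) with Ruvbl2 siRNA in LPS, and its other probe gave -0.98. The LPS difference of Tm7sf2 was -0.04 with Ruvbl2 siRNA (0.33 with spike-in scaling) and 0.64 with control siRNA (0.71), so the LPS effects differed by -0.68, and by -0.63 for the other probe. With spike-in scaling that difference was -0.39, where all genes had a median of 0.26. No member's LPS effects differed by 2-fold, against 1.69% of 12471 genes, and Tm7sf2 alone passed 1.5-fold, against 8.14%. With spike-in scaling Apoe (0.72) passed 1.5-fold in its place. The difference lay above 0 for 4 of 17 enzymes and below for 13, where 45% of all genes lay above and 55% below, and above 0 for 15 of 17 with spike-in scaling.

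Other enzymes were nearer to 0 in LPS, with 11 of 17 below 0 where 49.2% of all genes lay below and 50.8% above, and a median of -0.09, against 0.00 over all genes. Mvk had 4.5 with Ruvbl2 siRNA against 4.85 with control siRNA (-0.35), and Fdft1 4.25 against 4.49 (-0.25). Sqle was higher, with 5.42 against 5.14 (0.28), and Idi1 with 4.14 against 3.94 (0.20). Among regulators, Insig1 had 0.96 against 0.54 (0.42) and Scap 4.28 against 3.88 (0.40). Abcg1 had 3.96 against 3.44 (0.52, 1.43-fold), Apoe 0.50 against 0.07 (0.43) and Fasn 7.10 against 6.67 (0.43). These 3 genes were each lower with LPS under control siRNA, but that comparison uses the same control siRNA LPS array, so the results are not separate. The difference of their LPS effects, which uses that array too, was 0.20 for Abcg1, 0.43 for Apoe and 0.21 for Fasn. Over the 5 LXR targets the median in LPS was 0.07, with Lpcat3 the lowest at -0.28. Insig1, Abcg1 and Fasn were among 10 members above 0 in both treatments, and Nr1h3, Lpcat3 and Scd1 among 9 below 0 in both. The 2 comparisons share no array, but each siRNA lay in the same slide row in both. Of the genes just named, Fasn (-0.08) turned below 0 in DMSO under spike-in scaling. The share of members with the same direction in both treatments was 59.4% of 32, against 61.4% of all genes.

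**Figure D3:**
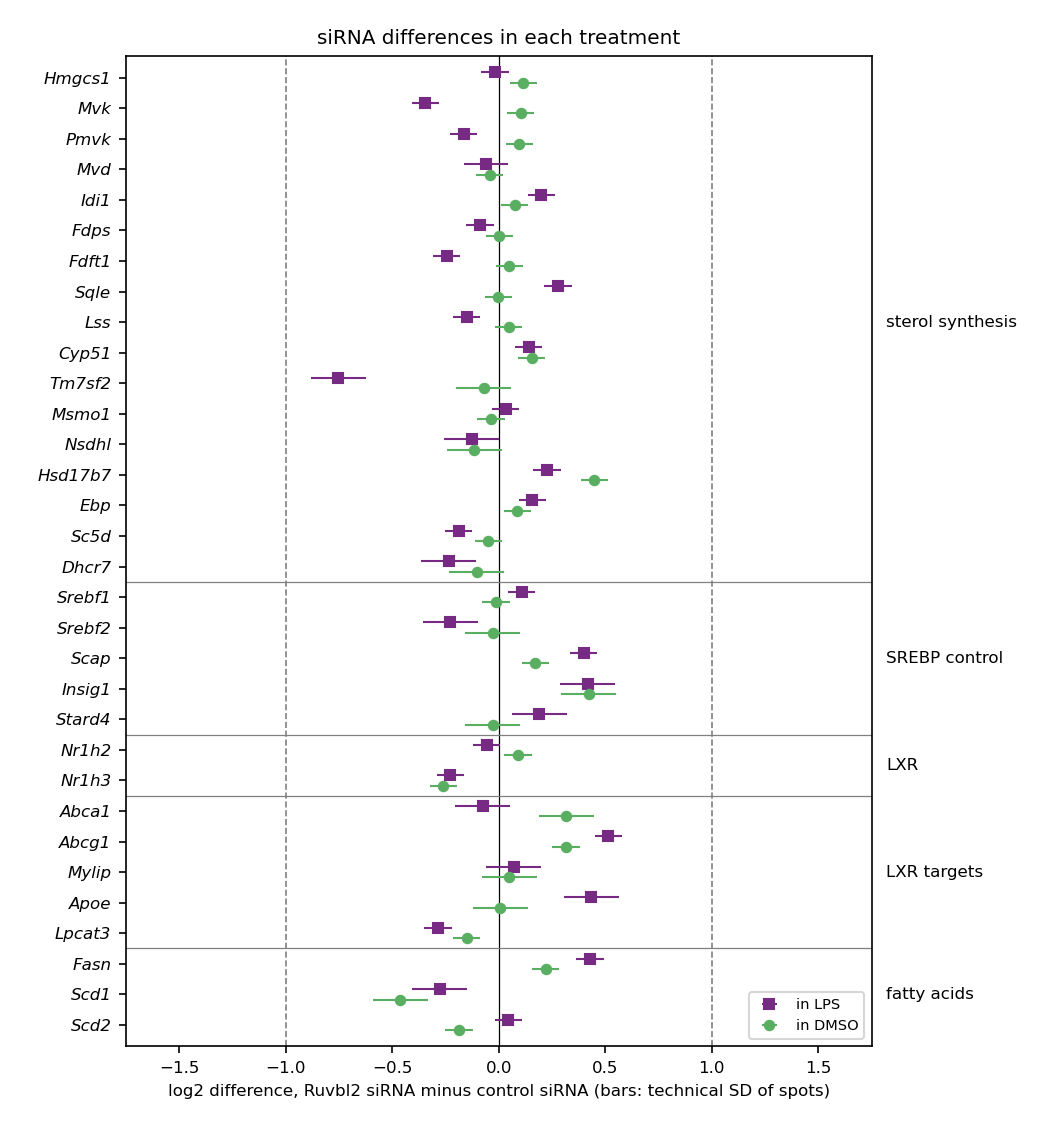
The log2 difference of Ruvbl2 siRNA minus control siRNA is shown for each gene, with purple squares in LPS, green circles in DMSO, bars for the technical SD of spots and dashed lines at 2-fold. No gene reaches a dashed line, and Tm7sf2 in LPS lies farthest from 0 at -0.75. Spike-in scaling would move the green circles left by about 0.30.

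Neighbouring genes of the same pathways are described from 3 lists. Of 12 other LXR partners and targets, 10 lay below 0 with LPS under control siRNA, where 50% of all genes did. The pump gene Abcg2 was the 1 of 12 called higher with control siRNA (2.50-fold), against 5.74% of all genes. With Ruvbl2 siRNA Abcg2 was 1.96-fold higher. Smpdl3a, a phosphodiesterase induced by LXR in human cells, and Pltp, the phospholipid transfer protein, were called lower with Ruvbl2 siRNA (2.22-fold and 2.14-fold). These were 2 of 12, against 2.07% of all genes, and each was under 2-fold with spike-in scaling. With control siRNA Smpdl3a and Pltp were also lower, at -0.53 and -0.56.

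Of 14 cholesterol storage, trafficking and oxysterol genes, 2 were called higher and 2 lower with LPS under control siRNA, against 5.74% and 2.21% of all genes. Npc2, which hands cholesterol out of the lysosome, was 2.29-fold higher. Gpr183, the receptor for dihydroxylated oxysterols, was 3.59-fold lower and Lrp1, a lipoprotein receptor, 2.34-fold lower. With Ruvbl2 siRNA Npc2 was 1.86-fold higher, Gpr183 2.40-fold lower and Lrp1 1.96-fold lower. Gpr183 was then the 1 gene of 14 called lower, against 2.07% of all genes, and 0 were called higher, against 4.14%. Spike-in scaling would raise these log2 differences with Ruvbl2 siRNA by about 0.37. Soat2, which esterifies cholesterol for storage, had a level of -0.18 with LPS against -0.38 with DMSO in Ruvbl2 siRNA cells, and of 1.48 against -0.40 in control siRNA cells. Like Tm7sf2, it stood apart on the control siRNA LPS array. In LPS, Soat2 was 3.15-fold lower with Ruvbl2 siRNA (-1.66), the 1 of 14 called, against 2.52% of all genes either way. Its LPS effects differed by -1.68, again the 1 of 14 called, against 1.69% of all genes. Both values use the control siRNA LPS array, so they are not separate. Among 13 other fatty acid synthesis genes, 1 was called, Acss2, which makes acetyl-CoA from acetate. It was called higher with LPS under control siRNA (2.03-fold), against 5.74% of all genes. It was also called lower with Ruvbl2 siRNA in LPS, where 2.52% of all genes were called either way. Both calls use the control siRNA LPS array, so they are not separate. Acss2 had 0.56 with LPS against 0.47 with DMSO under Ruvbl2 siRNA and 1.68 against 0.66 under control siRNA, and was 2.17-fold lower (-1.12) with Ruvbl2 siRNA in LPS. Averaging its probes gave -0.92 and normexp correction with quantile normalization -0.99, both under 2-fold.

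Where a member had another measured probe, the directions of the probes matched in 10 of 15 cases for LPS with control siRNA, 9 of 15 for LPS with Ruvbl2 siRNA, 11 of 15 for the siRNA difference in DMSO and 12 of 16 for that in LPS. For Ebp the probes gave LPS differences of 0.38 and 0.35 with Ruvbl2 siRNA and of 0.25 and 0.28 with control siRNA, the other probe before the brightest. In DMSO the siRNA differences of the brightest and the other probe were -0.07 and -0.36 for Tm7sf2, 0.01 and 0.31 for Apoe, and -0.26 and -0.50 for Nr1h3, the same direction in each case but wider apart than the technical SD. The LPS differences of the 2 Stard4 probes were opposed, as given above. For Lss, lanosterol synthase, the brightest probe gave 0.20 and 0.40 with LPS (Ruvbl2 siRNA, then control), a further probe 0.46 and 0.23, and a dimmer one -1.18 and -1.04. That dimmer Lss probe passed 2-fold in the lower direction with both siRNAs, so the direction of Lss depends on the probe.

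**Figure D4:**
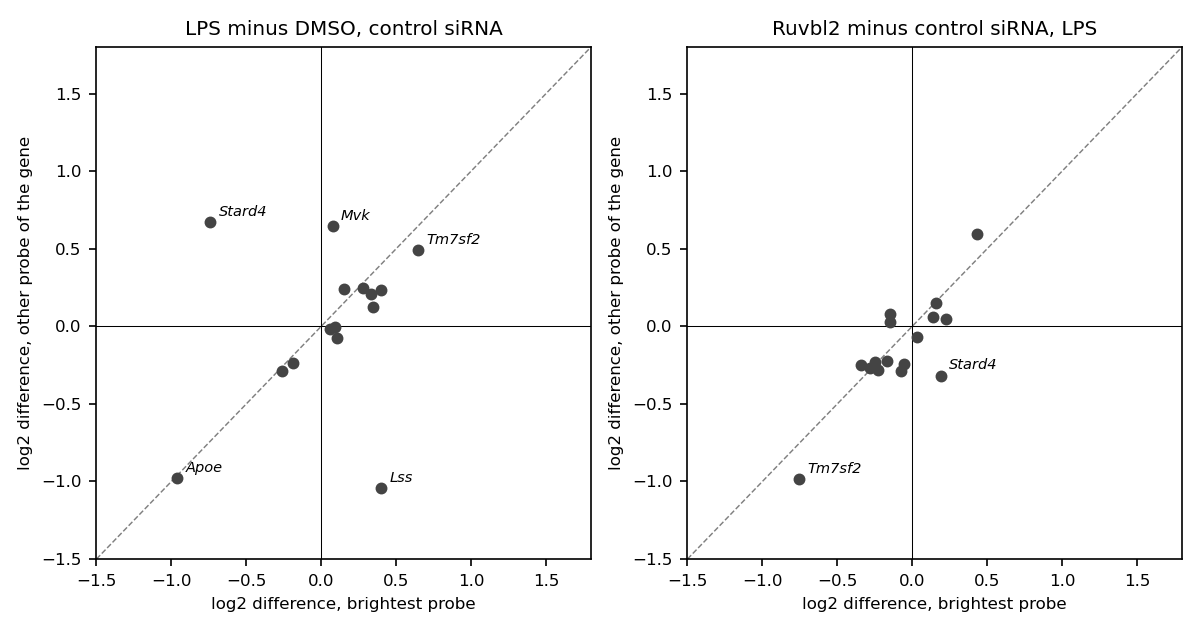
For members with more than 1 measured probe, the log2 difference of the other probe is plotted against that of the brightest, for LPS minus DMSO with control siRNA (left) and Ruvbl2 minus control siRNA in LPS (right), with a dashed line of equality. Stard4 and 1 Lss probe lie far from the line on the left, and Tm7sf2 lies near it in both panels.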

How the data were processed

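RNA from 4 groups of RAW264.7 cells, 1 sample each, was labelled with Cy3 and hybridised in 1 colour to an Agilent mouse array, per the labels' protocols. The deposited intensity values are, per the file headers, spot brightness read with Feature Extraction 11.5.1.1 (the submitters' processing notes name 11.0), background-subtracted on each array with no step between arrays. In the value table, 62976 of 62976 spots per array held that same signal (relative tolerance 1e-06). The flags for spots above background and outliers (other values, 0 or 1) are the scanner software's, per the file headers.

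Outlier spots were left out, spots of a probe averaged, and log2 signals set against the array's 75th percentile over 56605 RNA probes. Probes were named through RefSeq accessions (32994 named, 23611 not). A gene took its brightest probe, and was compared where well above background on at least 1 array, with a dim array set to the higher of its value and the array's lowest well-above-background level. The call rule was 2-fold. No test was possible with 1 array per group, and precision is limited by having 4 arrays. The steps were tested on simulated data. Alternatives were normexp correction (R 4.3.3, limma 3.58.1, offset 50, on median signals because no mean signal was in the files used here) followed by quantile normalization, quantile normalization of the processed signal, centring on detected probes, spike-in scaling on 7 probes, the mean of probes, a level of at least -2 on the brighter array and a 1.5-fold rule. The naming rule allowed any member in the text. Full values were given for members called or differing by 0.5 or more, and called genes of neighbouring lists were named, up to 5 per list, except for 1 list whose result is not reported here. The members and lists were chosen with earlier results of these data known.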

Additional observations from a re-analysis of the deposited data

Results flagged for a closer look

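The members below had effects of opposite sign, each beyond its technical SD, with the other siRNA or in the other treatment. The difference was not tested, since each group was 1 array. Mvk differed with LPS by -0.37 with Ruvbl2 siRNA and 0.08 with control siRNA, and between siRNAs by -0.35 in LPS and 0.10 in DMSO, so its effects differed by -0.45. Its other probe gave LPS differences of 0.28 and 0.65, both above 0. Pmvk differed between siRNAs by -0.17 in LPS and 0.10 in DMSO, a gap of -0.26, while its other probe gave -0.22 and -0.24, of the same sign. Hsd17b7 differed with LPS by -0.07 with Ruvbl2 siRNA and 0.15 with control siRNA, a gap of -0.22, while its other probe gave 0.13 and 0.24, both above 0. Scap differed with LPS by 0.09 with Ruvbl2 siRNA and -0.14 with control siRNA, a gap of 0.23. These were 4 of 32 members, against 14.7% of 12471 genes measured on all arrays, a share near that of the members. With spike-in scaling the gaps were -0.15 for Mvk, 0.036 for Pmvk, 0.074 for Hsd17b7 and 0.52 for Scap, so those of Pmvk and Hsd17b7 turned.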

How the results depend on the processing

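Spike-in scaling moved most values that use the Ruvbl2 siRNA DMSO array. The sterol synthesis median turned to 0.25 (LPS with Ruvbl2 siRNA) and 0.165 (difference of LPS effects), and moved to 0.012 (LPS with control siRNA) and -0.26 (siRNA difference in DMSO), where normexp correction with quantile normalization gave -0.042. The LXR target median moved to -0.039, -0.25 and 0.32 for LPS with Ruvbl2 siRNA, the siRNA difference in DMSO and the difference of LPS effects, in that order. The count of members past the size rule for LPS became 1 with each siRNA under spike-in scaling, 0 with Ruvbl2 siRNA under normexp correction with quantile normalization and 6 with control siRNA under a 1.5-fold rule. That rule gave 1 for the siRNA difference in LPS. Of 80 values of single genes, spike-in scaling took 5 below the size rule and 2 past it, and moved 40 more without such a crossing. Normexp correction with quantile normalization took 4 below and 1 past, and moved 5 more. Averaging probes took 2 below and moved 8 more. Quantile normalization alone took 1 past. None that was called changed sign. The cause of these shifts was not tested. Quantile normalization alone, centring on detected probes and the filter on dim genes left the other medians and counts within the technical SD or 1.5 times. Averaging probes did so too for medians and counts. No paired analysis was possible because each group has 1 array. Leaving out a replicate was not possible for the same reason. A signal not well above background limits Ch25h.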
